A study of Rattus norvegicus with 6 samples.

Results

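The genes described here mark brain blood vessels or bind vascular endothelial growth factor (VEGF), and were measured by RNA sequencing in embryonic rat cortex (embryonic day 18). They were chosen by name, as 5 Ensembl gene IDs of the 32754 in the deposited table: Kdr (ENSRNOG00000046829), Flt1 (ENSRNOG00000000940), Cldn5 (ENSRNOG00000045811), Slc2a1 (ENSRNOG00000007284) and Abcb1a (ENSRNOG00000008012). The names came with the list of IDs. The deposited table gives no symbols and the reference table used here pairs 0 of its genes with an Ensembl ID, so the pairing of names and IDs was not checked. Of the 5 IDs, 4 had counts in every library and 1, Cldn5, was listed at 0 in all 6.

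The tish rat (telencephalic internal structural heterotopia) carries a band of misplaced neurons under the cortex on both sides, which the study's title ties to a deletion in Eml1, a gene for a microtubule-binding protein. Tish embryos (3, of which 2 were male and 1 female) were compared with embryos of SD, the Sprague-Dawley rat (3, of which 2 were male and 1 female), to find genes whose expression differs in the mutant cortex before birth. Each library was RNA of 1 animal. The tish tissue held both the normally placed and the heterotopic cortex and the SD tissue was neocortex per the protocol, although the tissue fields name neocortex for tish and cortex for SD, so tissue and genotype cannot be told apart, nor can litter, which the labels do not give.

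Blood vessels grow into the embryonic cortex from its outer surface, guided by VEGF that neural cells release. Endothelial cells read VEGF through the receptor tyrosine kinase KDR (VEGFR2), which carries most of the growth signal, and through FLT1 (VEGFR1), which binds VEGF tightly, signals weakly and limits how much reaches KDR. Once in the brain these cells form a barrier: claudin-5, the product of Cldn5, seals the junctions between them, GLUT1, the product of Slc2a1, carries glucose across, and P-glycoprotein, the product of Abcb1a in rodents, pumps drugs and lipids back into the blood. GLUT1 is also made by glia and is a classic target of the hypoxia response, so Slc2a1 is not restricted to vessels.

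The promoters of the 2 genes that fell in tish, Kdr and Slc2a1, are shown with that of Flt1, the receptor that did not pass the test, to let their sequences be compared. They run from 250 bases before to 50 bases after the start in RefSeq's annotation of GRCr8, a later build than the Rnor_6.0 used for the counts, and were matched by symbol. All 3 are on the plus strand, at chr14:32571813-32572112 for Kdr, chr5:138002272-138002571 for Slc2a1 and chr12:12333180-12333479 for Flt1. Capitals mark matches on either strand to GGAA (the core of sites for ETS factors, which act widely in endothelium), to ACGTG or GCGTG (cores of the hypoxia response element), to GGGCGG (the GC box) and to TATAAA (the TATA box). No matches overlap, and a GCGTG and a GGAA adjoin in Kdr.
Kdr: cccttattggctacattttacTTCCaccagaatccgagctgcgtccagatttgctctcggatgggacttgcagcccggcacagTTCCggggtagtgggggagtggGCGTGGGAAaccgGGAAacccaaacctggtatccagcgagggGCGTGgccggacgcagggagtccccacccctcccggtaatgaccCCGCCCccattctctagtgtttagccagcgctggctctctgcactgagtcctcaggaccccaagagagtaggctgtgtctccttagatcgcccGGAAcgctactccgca
Slc2a1: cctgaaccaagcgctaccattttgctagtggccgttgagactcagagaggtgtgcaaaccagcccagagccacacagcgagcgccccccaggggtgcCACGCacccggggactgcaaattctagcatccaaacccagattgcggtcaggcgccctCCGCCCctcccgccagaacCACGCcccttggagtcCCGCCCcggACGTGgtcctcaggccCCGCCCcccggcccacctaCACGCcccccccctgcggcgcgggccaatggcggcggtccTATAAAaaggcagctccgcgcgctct
Flt1: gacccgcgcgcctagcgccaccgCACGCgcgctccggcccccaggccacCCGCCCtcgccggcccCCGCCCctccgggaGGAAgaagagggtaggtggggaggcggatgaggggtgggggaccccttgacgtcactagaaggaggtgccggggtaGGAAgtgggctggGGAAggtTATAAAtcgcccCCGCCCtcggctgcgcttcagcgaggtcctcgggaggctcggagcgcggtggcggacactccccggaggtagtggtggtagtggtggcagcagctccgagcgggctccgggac

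The Kdr promoter held 5 matches to GGAA, 2 to GCGTG and 1 to GGGCGG. The Slc2a1 promoter held 0 matches to GGAA, 1 to ACGTG, 3 to GCGTG, 3 to GGGCGG and 1 to TATAAA. The Flt1 promoter held 3 matches to GGAA, 1 to GCGTG, 3 to GGGCGG and 1 to TATAAA. The 2 genes that fell therefore shared GCGTG and GGGCGG, which Flt1 held too. The promoter of Abcb1a, the other tested gene that was not called, is not printed. It held 3 matches to GGAA, 0 to GCGTG and 1 to GGGCGG. Over all 27457 rat promoters of this length in the table, 95.8% held GGAA, 31.1% GCGTG, 34.9% GGGCGG, 19.7% ACGTG and 14.3% TATAAA. Slc2a1 thus lacked a motif that most promoters hold. The matches describe the letters only, and no binding was measured here.

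Libraries held 15625915 to 20844504 counts, and differences were tested over 14818 genes with edgeR's quasi-likelihood test, with p adjusted by Benjamini-Hochberg over all of them and a call at an adjusted p under 0.05. Levels are given as CPM, counts scaled by TMM to a common library total. The table holds no gene lengths, so levels are compared between groups for 1 gene and not between genes. The libraries tish 3 and SD 1 stood apart by their number of genes far from all other libraries. In tish 3, 46 genes were at a level 4-fold or more under all 5 others, where the others had 0 to 6 such genes. In SD 1, 18 genes were 4-fold or more over all others, where these had 0. Because of these genes, each gene was also tested without both. Over genes with at least 20 counts, tish 3 did not stand apart from tish 1. Their chi-square was 8.56 times its degrees of freedom, against 8.59 for tish 1 and tish 2. It was 15.4 times for tish 2 and tish 3. SD 1 did stand apart by this measure, at 24.5 against SD 2 and 21.6 against SD 3. SD 2 and SD 3 gave 14.6. In whole tissue, fewer endothelial cells and less RNA per cell cannot be told apart.

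Among the 4 genes that could be tested, 2 were lower in tish and 0 were higher (edgeR, adjusted p under 0.05). Over all tested genes, 12.9% were called lower and 13.4% higher in tish, or 26.3% in either direction, and 4 genes are too few to set apart from that background. The same 2 genes, Kdr and Slc2a1, were the ones whose groups did not overlap, where all tested genes gave 44.3% (22.6% lower and 21.7% higher in tish). The differences of Flt1 and Abcb1a were within the spread of their libraries.

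**Figure D1:**
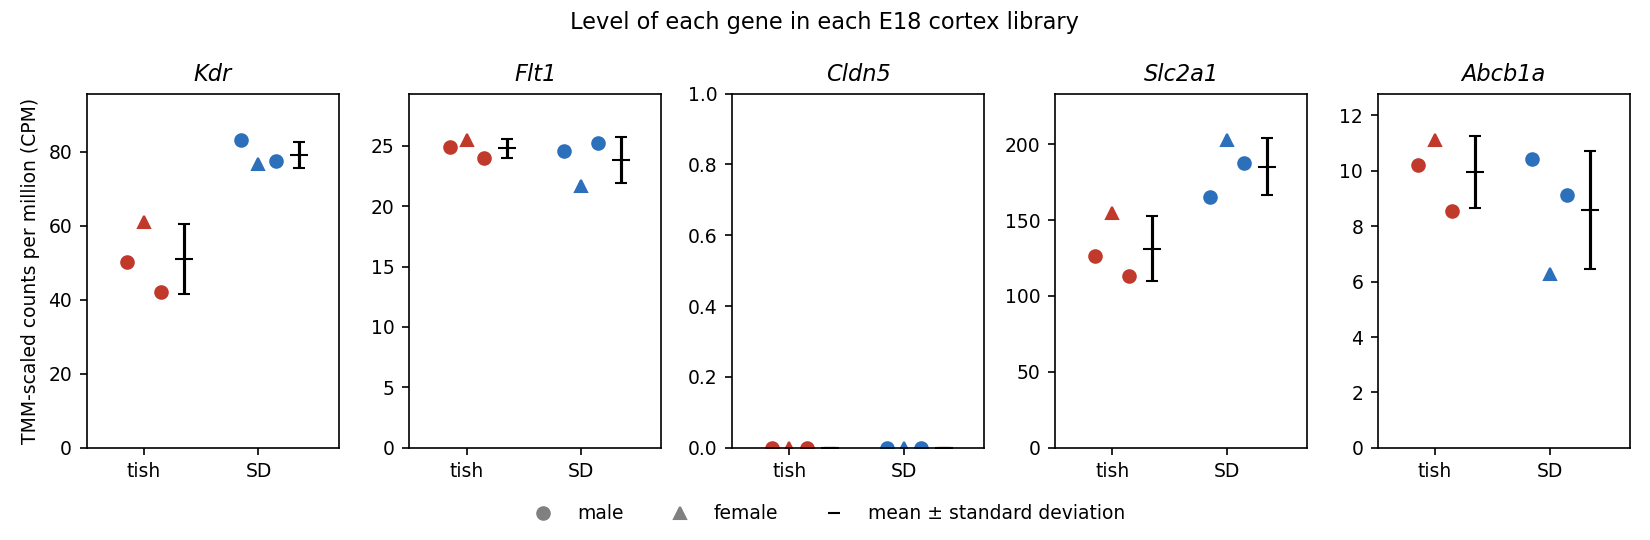
Level of each gene in TMM-scaled CPM in the 3 tish and 3 SD libraries, drawn from left to right in order of replicate, with circles for males, triangles for females and the mean with its standard deviation beside them. For Kdr and Slc2a1 every tish library lies below every SD library, for Flt1 and Abcb1a the groups overlap, and Cldn5 is at 0 throughout.

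Kdr, the main VEGF receptor of growing vessels, fell in tish. It had 784, 1256 and 827 counts in tish 1, tish 2 and tish 3, and 1461, 1419 and 1447 counts in SD 1, SD 2 and SD 3. Scaled for depth these were 50.0, 61.0 and 42.1 CPM in the tish libraries and 83.2, 76.6 and 77.5 CPM in the SD libraries. The groups did not overlap, as was so for 22.6% of all tested genes in this direction, and the tish animals were spread more widely than the SD animals. The mean was 51.0 ± 9.50 CPM in tish and 79.1 ± 3.58 CPM in SD (standard deviation, n = 3 each), a coefficient of variation of 18.6% in tish and 4.52% in SD. The log2 fold change was -0.63 (SE 0.13, edgeR adjusted p = 0.00707), a fold of 0.645 with a 95% interval of 0.528 to 0.789. Of all tested genes, 9.54% had a lower log2 fold change and 19.6% a larger one in either direction. Under 16 other settings the log2 fold change ran from -0.80 to -0.47 and its adjusted p from 0.00017 to 0.0354, and it was -0.47 (adjusted p = 0.0239) without tish 3 and SD 1.

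Flt1, the receptor that binds VEGF and signals little, did not pass the test. It had 390, 525 and 471 counts in tish 1, tish 2 and tish 3, and 432, 401 and 471 counts in SD 1, SD 2 and SD 3. In CPM these were 24.9, 25.5 and 24.0 in the tish libraries and 24.6, 21.6 and 25.2 in the SD libraries. The groups overlapped, and the lowest value was the SD 2 library. The mean was 24.8 ± 0.773 CPM in tish and 23.8 ± 1.92 CPM in SD (standard deviation, n = 3 each). The log2 fold change was 0.06 (SE 0.11, edgeR adjusted p = 0.737), and the 95% interval of the fold, 0.881 to 1.23, does not reach the fold of Kdr. A larger fold change in either direction was seen in 87.1% of tested genes.

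Cldn5, the junction gene, gave no measurement. Its ID was listed at 0 counts in tish 1, tish 2 and tish 3 and in SD 1, SD 2 and SD 3, as were 10419 IDs (31.8%) of the table. A count of 0 allows up to 3 counts, which is 0.144 to 0.192 CPM in these libraries, for counting error only. The defining junction marker of brain endothelium was thus listed at 0 in both groups alike, and what is said of endothelium here rests on the other genes. The treatment of reads that fall on several genes is not given in the sources used here, and whether reads of this gene were counted under another ID was not tested.

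Slc2a1, which encodes the glucose transporter GLUT1, fell in tish. It had 1981, 3178 and 2218 counts in tish 1, tish 2 and tish 3, and 2902, 3760 and 3496 counts in SD 1, SD 2 and SD 3. In CPM these were 126, 154 and 113 in the tish libraries and 165, 203 and 187 in the SD libraries. The groups did not overlap, with the female library tish 2 just below the male library SD 1. The mean was 131 ± 21.1 CPM in tish and 185 ± 18.9 CPM in SD (standard deviation, n = 3 each). The log2 fold change was -0.50 (SE 0.12, edgeR adjusted p = 0.0183), a fold of 0.709 with a 95% interval of 0.583 to 0.862. The direction held under all 16 other settings, but the call did not: the adjusted p was 0.0762 without tish 1, 0.0672 without tish 3, 0.0678 without SD 2 and 0.0575 without SD 3. Without tish 3 and SD 1 together the log2 fold change was -0.47 (adjusted p = 0.0193), and with sex as a covariate it was -0.50 (adjusted p = 0.00308).

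Abcb1a, the gene of the efflux pump P-glycoprotein, was the least abundantly counted of the 4 and did not pass the test. It had 160, 229 and 168 counts in tish 1, tish 2 and tish 3, and 183, 116 and 170 counts in SD 1, SD 2 and SD 3. In CPM these were 10.2, 11.1 and 8.55 in the tish libraries and 10.4, 6.26 and 9.11 in the SD libraries. The groups overlapped, and SD 2 again was the lowest library. The mean was 9.96 ± 1.31 CPM in tish and 8.60 ± 2.13 CPM in SD (standard deviation, n = 3 each). The log2 fold change was 0.21 (SE 0.21, edgeR adjusted p = 0.492), and the 95% interval of the fold ran from 0.838 to 1.60. The interval holds both a loss and a gain but does not reach the estimated folds of Kdr and Slc2a1. It overlaps the 95% interval of Slc2a1, 0.583 to 0.862, so it does not show that these genes differ. The variation between libraries that edgeR estimated beyond counting error, 19.2%, was above those of the other 3 genes, at 12.5% or less. The rat genome holds a close paralog, Abcb1b, and how reads shared by the pair were counted is not given in the sources used here.

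**Figure D2:**
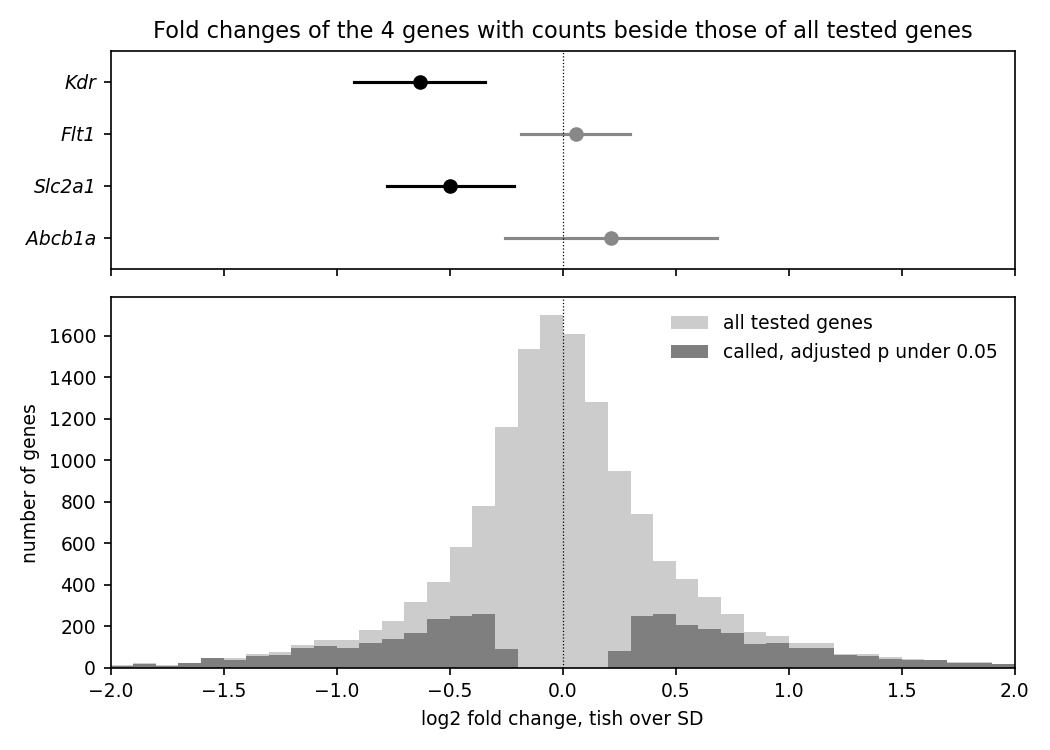
Top, log2 fold change of tish over SD with its 95% interval for the 4 genes with counts, in black where the adjusted p was under 0.05 and in grey otherwise. Bottom, number of genes per bin of log2 fold change among all 14818 tested genes and among those called, drawn from -2 to 2; Kdr at -0.63 and Slc2a1 at -0.50 lie in the lower flank, Flt1 at 0.06 near the centre and Abcb1a at 0.21 to its right.

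The proportion of the 2 VEGF receptors separated the groups, in a comparison too small to reach a p of 0.05. In counts not corrected for gene length, Flt1 had 49.7, 41.8 and 57.0 counts per 100 counts of Kdr in tish 1, tish 2 and tish 3, and 29.6, 28.3 and 32.6 in SD 1, SD 2 and SD 3. Every tish library was above every SD library, in a ratio that needs no scaling between libraries. Kdr had been called lower and Flt1 not called, and ratios of that kind separated in 70.5% of cases over all tested genes. The log2 ratio was 0.71 higher in tish, a fold of 1.63, with an exact two-sided permutation p of 0.1, the smallest that 3 libraries against 3 allow, and 0.15 after adjustment over the 6 pairs of genes. With 1 library left out the difference in log2 ratio ran from 0.60 to 0.82, and it was 0.59 without tish 3 and SD 1. The ratio sets the receptors against each other and does not say which of them differed.

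The proportion of the 2 genes that fell did not separate the groups. Slc2a1 had 253, 253 and 268 counts per 100 counts of Kdr in tish 1, tish 2 and tish 3, and 199, 265 and 242 in SD 1, SD 2 and SD 3. These values overlapped, and the log2 ratio was 0.14 higher in tish (exact two-sided permutation p = 0.4, adjusted 0.48), but 0.03 without SD 1. The tish libraries were close to each other in this ratio, with a standard deviation of 0.05 on the log2 scale against 0.21 in SD. In tish both genes were highest in tish 2 and lowest in tish 3, but in SD the library with the most Kdr, SD 1, had the least Slc2a1.

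The other ratios of a gene that fell to one that did not also separated the genotypes, which in part restates the values of the single genes. In all, 4 of the 6 ratios separated, against 45.4% of the ratios of any 2 tested genes, and all 4 were ratios of a gene that fell to one not called, a kind that separated in 70.5% of cases over all tested genes. Abcb1a per 100 counts of Kdr was 18.2 to 20.4 in tish and 8.17 to 12.5 in SD, and Abcb1a per 100 counts of Slc2a1 was 7.21 to 8.08 in tish and 3.09 to 6.31 in SD. Slc2a1 per 100 counts of Flt1 was 471 to 605 in tish and 672 to 938 in SD. Each of these 3 pairs also had the smallest possible p of 0.1 (exact two-sided permutation, adjusted 0.15). The difference in log2 ratio of Abcb1a to Slc2a1 was 0.74, and 0.46 without SD 2. Abcb1a and Flt1 overlapped, at 35.7 to 43.6 counts of Abcb1a per 100 of Flt1 in tish and 28.9 to 42.4 in SD (exact permutation p = 0.5, adjusted 0.5). The 6 ratios come from 4 genes and are not independent, and all but the one of the VEGF receptors were set up after the zeros of Cldn5 had been seen.

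**Figure D3:**
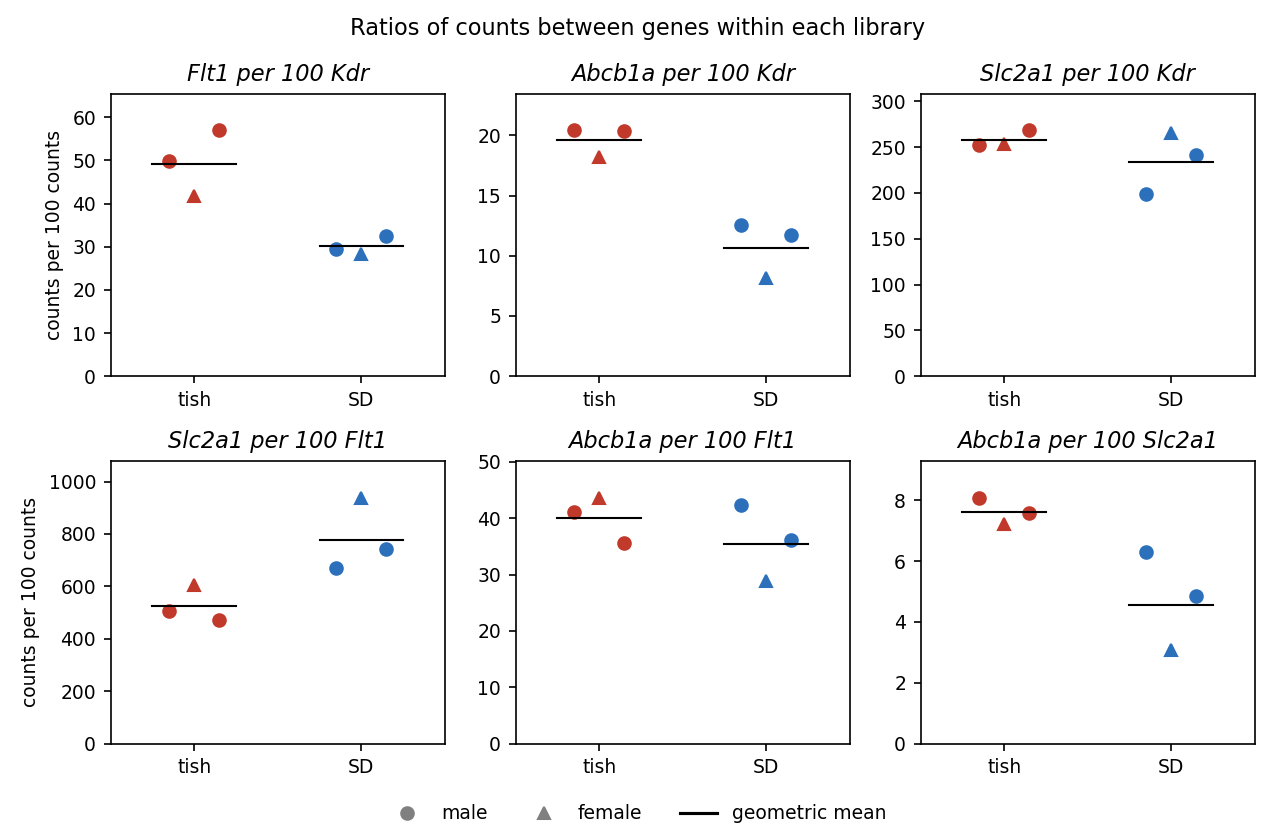
Counts of 1 gene per 100 counts of another within each library, not corrected for gene length, for the 6 pairs of genes with counts in 3 tish and 3 SD libraries; circles are males, triangles females and bars geometric means. The groups separate for Flt1 per Kdr, Abcb1a per Kdr, Slc2a1 per Flt1 and Abcb1a per Slc2a1, and overlap for Slc2a1 per Kdr and Abcb1a per Flt1.

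Likeness of pattern was measured as the root mean square distance between log2 CPM values centred on each gene's mean over the 6 libraries, so that 0 is an identical course. Kdr and Slc2a1 lay 0.14 apart, with 0.857% of the 14817 other tested genes nearer to Kdr and 3.34% nearer to Slc2a1. Flt1, the other VEGF receptor, lay 0.38 from Kdr, with 43.2% of genes nearer to Kdr and 74.8% nearer to Flt1. Flt1 and Abcb1a lay 0.20 apart, with 4.49% of genes nearer to Abcb1a but 41.1% nearer to Flt1. The distance follows the genotype difference and the differences among animals alike. The gene nearest to Flt1 was ENSRNOG00000008641, at 0.02, and that nearest to Slc2a1 was ENSRNOG00000014828, at 0.02, which had 125, 196 and 134 counts in tish and 179, 237 and 211 in SD. Neither ID has a symbol in the sources used here.

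Within each sex Kdr and Slc2a1 were lower in tish. Since every tish library lay below every SD library for both genes, a split by sex could give no other direction. In males, Kdr averaged 46.1 CPM in tish and 80.4 CPM in SD (n = 2 each), and in the females it was 61.0 CPM in tish and 76.6 CPM in SD (n = 1 each). Slc2a1 averaged 120 CPM in tish males and 176 CPM in SD males, and was 154 CPM in the tish female and 203 CPM in the SD female. With males alone, Kdr had a log2 fold change of -0.80 (edgeR adjusted p = 0.00973) and Slc2a1 of -0.55 (adjusted p = 0.0191). Kdr, the gene with the tightest SD values, thus had a larger difference in males than in females by these values.

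Abcb1a and Flt1 did not keep a direction across the sexes. Abcb1a averaged 9.38 CPM in tish males and 9.76 CPM in SD males, against 11.1 CPM in the tish female and 6.26 CPM in the SD female. Flt1 averaged 24.4 CPM in tish males and 24.9 CPM in SD males, against 25.5 CPM in the tish female and 21.6 CPM in the SD female. In a model with an interaction of sex and genotype, set up after these values were seen, the effect in females minus that in males was 0.89 for Abcb1a (log2, SE 0.37) and 0.48 for Kdr (SE 0.21). Neither passed (edgeR unadjusted p = 0.0407 and 0.0487, adjusted p = 0.9999 for both), and in that model 0 of 14818 genes were called while 428 had an unadjusted p under 0.05. With 1 female per genotype, the spread in that model comes from the males alone.

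**Figure D4:**
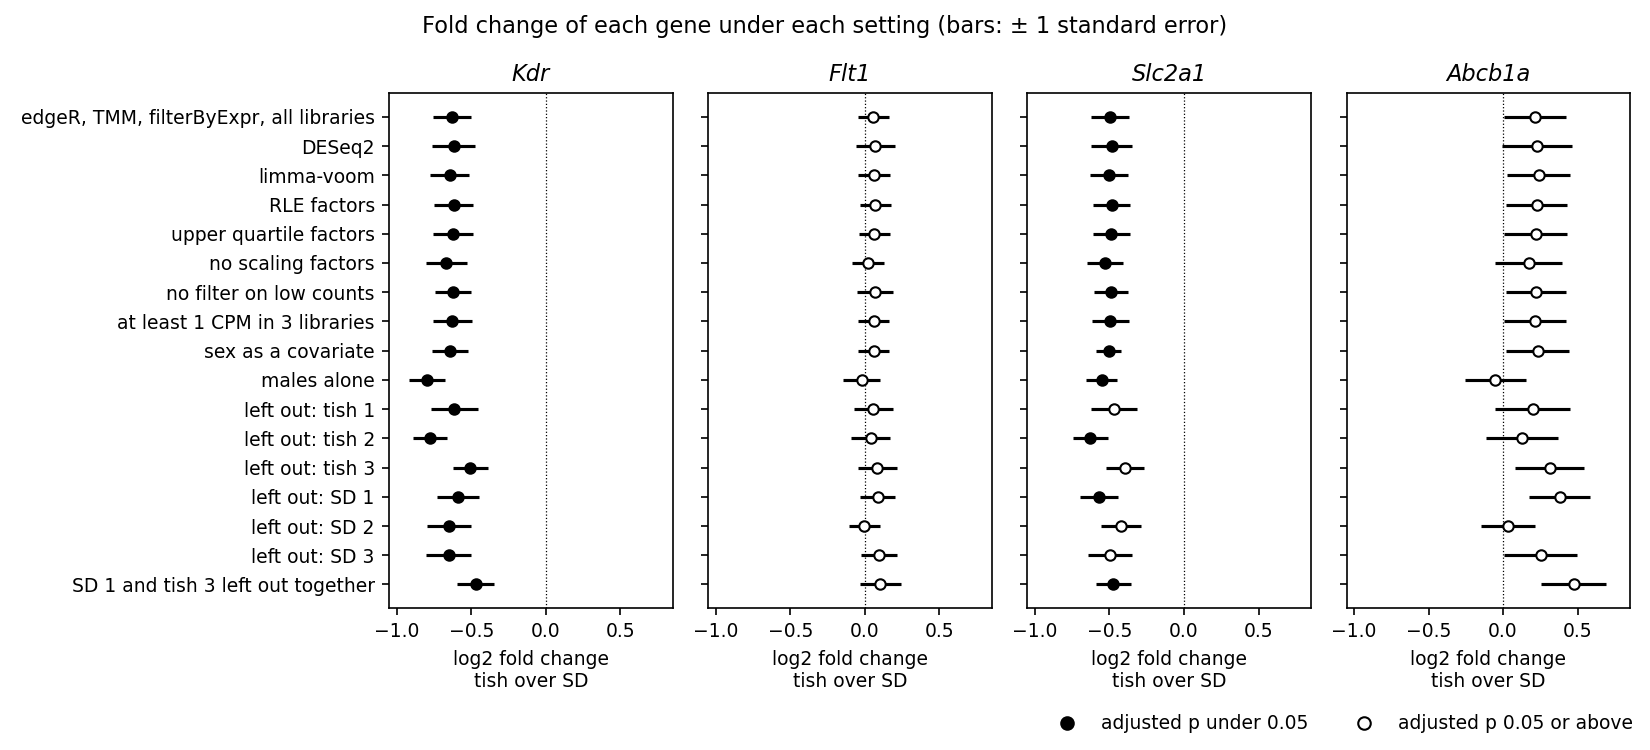
Log2 fold change of tish over SD for each of the 4 genes under the reported fit (top) and 16 other settings, with bars of 1 standard error; filled points have an adjusted p under 0.05. Kdr is filled throughout, Slc2a1 is open in 4 of the 6 settings that leave out 1 library, and Flt1 and Abcb1a are open throughout.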

How the data were processed

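RNA of 6 cortex samples was sequenced. The deposited table holds raw counts by Ensembl ID, made by the authors with STAR on Rnor_6.0 and featureCounts 1.5.0, per the submitters' processing notes. The table lists its genes 2 times with 0 values differing, and each ID was used once (32754 IDs). Strand setting and handling of shared reads: not given in the sources used here.

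Genes were kept by filterByExpr (minimum count 10), scaled by TMM and tested in edgeR 4.0.16 (R 4.3.3; robust glmQLFit, glmQLFTest) with genotype as the only term. A standard error is the log2 fold change divided by the square root of F. Ratios of counts were tested by exact permutation over libraries. Log2 CPM for distances used a prior count of 2. The test was first checked on simulated counts. It called 25 of 50 genes with a simulated fold of 1.5, 33 of 50 with a fold of 2 and 14 of 14459 unchanged genes. Among all tested genes, one that did not pass may thus still differ by such a fold. For the 2 uncalled genes here, the intervals of the fold are narrower than that. The interval of Flt1, 0.881 to 1.23, holds neither fold in either direction. That of Abcb1a, 0.838 to 1.60, holds a gain by a fold of 1.5 but no such loss, and no fold of 2. Replicates of a group differed by a chi-square of at least 8.56 times its degrees of freedom, so none was counted as a repeat.

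All 5 genes are printed whatever their values. The genes and lists were chosen with earlier results of these data known. Of 4 planned ratios, 3 needed Cldn5 and gave no value. The 12 planned marker lists for other vessel and brain cell types and the check of Eml1 are not analysed here, since no ID could be paired with their symbols. Other settings tried were limma 3.58.1 with voom, DESeq2 1.42.0, other scalings and filters, sex as a covariate, males alone and each library left out.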

Additional observations from a re-analysis of the deposited data

How the results depend on the processing

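For the 4 genes, 60 of 64 log2 fold changes under other settings kept their status, called or not, and no called one changed direction. Kdr stayed called in all 16 settings and Slc2a1 in 12 of 16, while Flt1 and Abcb1a stayed uncalled in all 16. The exceptions were 4 of Slc2a1, which lost the call without tish 1, tish 3, SD 2 or SD 3. With 1 library left out its log2 fold change ran from -0.63 to -0.40, that of Kdr from -0.78 to -0.51, that of Flt1 from -0.00 to 0.10 and that of Abcb1a from 0.03 to 0.38. With males alone the uncalled differences of Flt1 (-0.02) and Abcb1a (-0.05) were below 0. The 6 differences in log2 ratio moved by less than 1 standard deviation, pooled over both groups, under every setting tried, though by more than that of tish alone in several. Leaving 1 of 3 libraries out of a group cannot move its mean by that pooled value. Settings with 1 library left out could therefore not have given another outcome, and it is no measure of stability. The differences of the 2 ratios that overlapped changed sign: Slc2a1 to Kdr was -0.00096 without tish 3 and SD 1, against 0.14, and Abcb1a to Flt1 was -0.03 with males alone, against 0.18. Without SD 2, Abcb1a to Slc2a1 was 0.46, against 0.74, and Abcb1a to Flt1 was 0.03. Other tools, scalings, filters and the covariate called 3839 to 4372 genes, against 3894. Males alone called 2130 genes (960 lower, 1170 higher) and an adjusted p under 0.01 called 1930 (884 lower, 1046 higher). With 1 library left out the calls ran from 2437 (without tish 1) to 4764 (without SD 1), those lower from 1130 to 2284 and those higher from 1307 to 2480; without tish 3 they were 2502, with 1172 lower, and without SD 3 the lower ones were 1262. The cause was not tested. Without scaling factors 2283 genes were lower and 1746 higher, against 1914 and 1980. Leaving out tish 3 and SD 1 together, and the pairs with no planned ratio, were chosen after seeing the data. No paired analysis was possible because the labels give no replicate numbers; those used here follow the order of accession and name libraries only. The planned counts over marker lists were not run. The fewest counts were those of Abcb1a, 557 in tish and 469 in SD; no setting varied depth.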
